A study of Mus musculus with 6 samples.

Results

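ISG15 conjugation is the attachment of ISG15, a small ubiquitin-like protein, to other proteins. It was examined here through the transcripts of 5 genes chosen by symbol, *Isg15*, *Uba7*, *Ube2l6*, *Herc6*, and *Usp18*, among the 26264 genes of a bulk RNA-seq table of hematopoietic stem cells (HSCs). HSCs were sorted from the bone marrow of untreated female mice that were 8 weeks old, 3 WT (C57Bl/6) and 3 lacking *Irf1* (*Irf1-/-*, IRF1 KO in the labels), with 1 library per mouse. The knockout allele is a germline allele carried by every cell of the animal, so the cells around the HSCs lacked IRF1 as well. Libraries are named by genotype and by the replicate numbers 2, 3, and 4 of their labels.

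In this pathway the ISG15 precursor is trimmed, activated by the E1 enzyme UBA7, passed to the E2 enzyme UBE2L6, and joined to target proteins by an E3 ligase, which in the mouse is mainly HERC6. USP18 takes ISG15 off again and, apart from this activity, binds the type I interferon receptor and dampens its signal. Type I interferon induces all of these genes through the transcription factor complex ISGF3, and IRF1 is an interferon-induced transcription factor that binds related DNA elements. In HSCs, type I interferon is known to drive quiescent cells into cycle.

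Reads counted on genes amounted to 43138521, 57281017, and 45129929 in *Irf1-/-* replicates 2, 3, and 4 and to 59658080, 45332573, and 43267486 in the corresponding WT libraries. The targeted gene, *Irf1*, had normalized counts of 9267, 9524, and 9287 in *Irf1-/-* replicates 2, 3, and 4 and of 10122, 11120, and 12057.5 in WT replicates 2, 3, and 4. All 3 *Irf1-/-* libraries were thus lower than all 3 WT libraries, but reads on the gene were still counted (log2 fold change −0.24 ± 0.088 SE, limma adjusted *P* = 0.170). Counts were summed over the whole gene and include any transcript from outside the targeted part of the allele, so this level does not check the genotype, which rests on the labels wherever a direction is given.

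Normalized counts are the authors' read counts divided by 1 size factor per library. The test between genotypes was limma's, on log2(normalized count + 1), over 17404 genes whose mean normalized count reached 10, and all 5 genes of the pathway passed this filter in both genotypes. Fold changes are *Irf1-/-* minus WT on this log2 scale. A gene was called at a Benjamini-Hochberg adjusted *P* under 0.05 over all tested genes together with an absolute log2 fold change above 0.58.

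*Isg15*, the modifier itself, had normalized counts of 454, 762, and 515 in *Irf1-/-* replicates 2, 3, and 4. In WT replicates 2, 3, and 4 its normalized counts were 910, 745, and 857. *Irf1-/-* replicate 3 lay just above WT replicate 3, so the genotypes overlapped, whereas the other 2 *Irf1-/-* libraries were lower than every WT library. The mean was 577 ± 163 (SD, *n* = 3) in *Irf1-/-* and 837 ± 84.4 (SD, *n* = 3) in WT HSCs. The log2 fold change of *Isg15* was −0.57 (95% interval −0.96 to −0.17, SE 0.18), which was not called (adjusted *P* = 0.124, limma; exact two-sided permutation *P* = 0.2). It was called without *Irf1-/-* replicate 3 (log2 fold change −0.79, adjusted *P* = 0.0264, limma). In the other fits without a library *Isg15* was not called, with an adjusted *P* between 0.151 and 0.383 (limma). In bulk libraries, fewer cells of a kind that transcribe a gene and less RNA of it per cell cannot be told apart.

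*Uba7*, the E1 enzyme that activates ISG15, had normalized counts of 20978.5, 21289, and 23418.5 in *Irf1-/-* replicates 2, 3, and 4. WT replicates 2, 3, and 4 had 34087.5, 34399, and 30510.5 normalized counts of *Uba7*. The genotypes were well apart, with the lowest WT library 1.30 times as high as the highest *Irf1-/-* library. *Uba7* fell by 0.59 on the log2 scale (95% interval −0.78 to −0.40 ± 0.090 SE, limma adjusted *P* = 0.00237), to 66.4% of the WT mean, and was called. Its fold change lay at the threshold. When *Irf1-/-* replicate 2, *Irf1-/-* replicate 3, WT replicate 2, or WT replicate 3 was left out, the log2 fold change was −0.56, −0.57, −0.57, and −0.56, respectively, and the gene was no longer called, although the adjusted *P* was at most 0.0203 in the fits without a library. It was not called after quantile normalization either (log2 fold change −0.48, limma adjusted *P* = 0.00183), nor in limma without the trend in the prior variance (adjusted *P* = 0.138), where 33 genes in all were called lower.

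*Ube2l6*, the E2 enzyme of the pathway, had normalized counts of 7771, 10084, and 7723.5 in *Irf1-/-* replicates 2, 3, and 4. Its normalized counts in WT replicates 2, 3, and 4 were 10964, 12751, and 10601. *Irf1-/-* replicate 3 again came closest to WT, and the genotypes did not overlap. The log2 fold change was −0.43 (95% interval −0.67 to −0.19, SE 0.11) and was not called (adjusted *P* = 0.0551, limma).

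*Herc6*, the ligase, had normalized counts of 1350, 1714, and 1362 in *Irf1-/-* replicates 2, 3, and 4. In WT replicates 2, 3, and 4 there were 2192, 2113, and 1863 normalized counts of *Herc6*. All *Irf1-/-* libraries lay below all WT libraries, with *Irf1-/-* replicate 3 nearest to them. The log2 fold change of −0.48 (95% interval −0.75 to −0.22, SE 0.12) had an adjusted *P* of 0.0460 (limma) and stayed short of the fold change threshold, so *Herc6* was not called. Without *Irf1-/-* replicate 3 it was called (log2 fold change −0.60, adjusted *P* = 0.0224, limma).

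*Usp18*, the protease, had normalized counts of 2076, 2220, and 1699 in *Irf1-/-* replicates 2, 3, and 4. WT replicates 2, 3, and 4 had 2335, 2344, and 2274 normalized counts of *Usp18*. WT libraries were nearly level, *Irf1-/-* replicate 4 was lowest, and the genotypes did not overlap, although the lowest WT library was only 1.02 times as high as *Irf1-/-* replicate 3. The log2 fold change of −0.22 (95% interval −0.46 to 0.019, SE 0.11) was not called (adjusted *P* = 0.357, limma). Without *Irf1-/-* replicate 4 it was −0.11 (limma adjusted *P* = 0.831).

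Of the 5 genes, 1 was called, *Uba7*, where 1.91% of all tested genes were called, 0.954% lower and 0.96% higher in *Irf1-/-* HSCs. At an adjusted *P* under 0.05 alone (limma), *Uba7* and *Herc6* were lower, 2 of the 5, against 1.49% of tested genes lower and 3.22% in either direction. Among the fits without a library, *Herc6* stayed under 0.05 only in those without *Irf1-/-* replicate 3 or WT replicate 4. Its adjusted *P* was between 0.154 and 0.196 in the other 4 (limma). In DESeq2 the adjusted *P* was 0.0492 for *Isg15*, 1.67e-09 for *Uba7*, 0.00509 for *Ube2l6*, and 0.00428 for *Herc6*, and *Uba7* was the one called. The share of all tested genes under 0.05 in DESeq2 is not given here. The 3 *Irf1-/-* libraries lay below the 3 WT libraries for 4 of the 5, all but *Isg15*, and for 9.27% of the tested genes, while 19.9% of tested genes did not overlap in either direction. For each of these 4 the exact two-sided permutation *P* was 0.1, the smallest that 3 mice against 3 allow. All 5 log2 fold changes were below 0, with a median of −0.48, and the median over all tested genes was −0.0028. Of all tested genes, 50.4% had a log2 fold change below 0, 49.6% above 0, and 16.5% an unadjusted limma *P* under 0.05, the shares beside which the counts of the lists below are to be read.

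The levels of the enzymes and of the modifier were set side by side per kilobase of the longest coding transcript of each gene in GENCODE vM1, an annotation older than the authors' genome build. In WT HSCs the mean normalized count per kilobase was 10436.1 for *Uba7* and 7332.5 for *Ube2l6*. *Usp18* followed with 1309.5 and *Isg15* with 1107.8 normalized counts per kilobase, and *Herc6* was lowest with 389.5. *Isg15* was therefore among the less abundant transcripts of its own pathway in unstimulated WT HSCs. In *Irf1-/-* HSCs the order was the same, with mean normalized counts per kilobase of 6924.5 for *Uba7*, 5465.5 for *Ube2l6*, 1129.0 for *Usp18*, 763.3 for *Isg15*, and 279.5 for *Herc6*. Neighbours in this order did not overlap in WT libraries on this scale, but in *Irf1-/-* libraries *Usp18* (960.1 to 1254.2 normalized counts per kilobase) and *Isg15* (600.7 to 1008.2 normalized counts per kilobase) did. Per kilobase of the shortest annotated coding transcript, *Ube2l6* came before *Uba7* and *Herc6* before *Usp18* and *Isg15*, so these positions depend on which transcript is counted.

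Variation between mice of a genotype was shared by some of the genes. Of the 3 *Irf1-/-* libraries, replicate 3 was the highest for *Isg15*, *Ube2l6*, *Herc6*, and *Usp18*, and replicate 4 was the highest for *Uba7*. Over all tested genes replicate 3 was the highest *Irf1-/-* library for 39.6%. The deviations from the genotype means, taken on the log2 scale over 6 libraries, had a median Pearson r of 0.522 over the 10 pairs of these genes. The highest were 0.843 between *Ube2l6* and *Herc6* and 0.773 between *Isg15* and *Herc6*. *Uba7* stood apart from the rest, with an r of −0.181 to *Isg15*, 0.051 to *Ube2l6*, 0.178 to *Herc6*, and −0.530 to *Usp18*. These correlations over 6 libraries that share depth and preparation within a library are descriptions.

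Among the other type I interferon-induced genes, 18 of 22 were likewise highest in replicate 3 of the *Irf1-/-* libraries. The median deviation of these 22 genes from the genotype mean was 0.22 on the log2 scale in *Irf1-/-* replicate 3, −0.073 in replicate 2, and −0.13 in replicate 4. For the 5 pathway genes the corresponding median deviations were 0.23, −0.12, and −0.13 on the log2 scale. *Irf1-/-* replicate 3 thus had the highest levels of both groups of genes among the knockout mice. The library also had the most reads of the *Irf1-/-* libraries, and whether depth has a part in this was not tested. The E1 enzymes of ubiquitin and other modifiers were highest in *Irf1-/-* replicate 3 too, in 9 of 9 cases, with a median deviation of 0.12 on the log2 scale. It was the highest knockout library for 7 of the 8 HSC markers (median deviation 0.11) and for 0 of the 4 megakaryocyte markers (median deviation −0.34), and the part of these markers in the pattern was not tested. Among WT libraries, replicate 2 was the highest for 15 of the 22 interferon-induced genes. For the 5 pathway genes it was replicate 2 for 2 and replicate 3 for 3. Median deviations in WT replicates 2, 3, and 4 were 0.12, −0.079, and −0.021 for the 22 genes. They were 0.049, 0.043, and −0.105 for the 5 pathway genes.

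Of 10 ligases, E2 enzymes, and proteases that act on ISG15 beside its own cascade, 0 were called by limma, edgeR, or DESeq2, 1 had an unadjusted limma *P* under 0.05, 7 had a fold change above 0, and the median log2 fold change was 0.036. *Trim25*, a ubiquitin ligase that can also attach ISG15, had the largest difference among them. Its normalized counts were 5307, 4665.5, and 5583 in *Irf1-/-* replicates 2, 3, and 4 and 3380, 3586, and 4248 in the corresponding WT libraries. *Trim25* was thus higher in every *Irf1-/-* library than in every WT library, and its log2 fold change, 0.47 ± 0.11 SE (limma adjusted *P* = 0.0272), stayed under the fold change threshold. In 4 of the 6 fits without a library its adjusted *P* was between 0.0965 and 0.142 (limma). Of 11 proteins listed as partners of ISG15 or USP18, all tested, 0 were called by limma, edgeR, or DESeq2, 2 had an unadjusted limma *P* under 0.05, and the median log2 fold change was −0.073. The largest difference among these partners was that of *Itgal*, a chain of the LFA-1 integrin that extracellular ISG15 binds (log2 fold change −0.34 ± 0.29 SE, limma adjusted *P* = 0.644), and it was 0.086 without *Irf1-/-* replicate 3.

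Relatives of the pathway genes that serve ubiquitin or other modifiers were compared as well. *Ube2l3*, the closest relative of *Ube2l6* and an E2 enzyme of ubiquitin, had normalized counts of 9922, 11158.5, and 10652 in *Irf1-/-* replicates 2, 3, and 4 and 12145, 13213.5, and 10770 in the corresponding WT libraries. The genotypes overlapped for *Ube2l3* (log2 fold change −0.18 ± 0.094 SE, limma adjusted *P* = 0.369). The 4 other HERC family genes had log2 fold changes with a median of −0.27, and 0 of them were called by limma, edgeR, or DESeq2, with an unadjusted limma *P* under 0.05 for 2. The lowest of these was *Herc2*, which encodes a giant ligase of DNA repair (log2 fold change −0.36 ± 0.12 SE, limma adjusted *P* = 0.123). Of the 9 other E1 enzyme genes, 0 were called by any of these tools and 1 had an unadjusted limma *P* under 0.05, with a median log2 fold change of −0.079. *Uba2*, a subunit of the SUMO E1, was the most different of them (log2 fold change −0.30 ± 0.086 SE, limma adjusted *P* = 0.0764). The difference between *Uba7* or *Herc6* and these relatives was not itself tested.

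Ubiquitin and 13 further modifiers gave a median log2 fold change of −0.10, and 0 of the 14 genes were called by limma or edgeR (unadjusted limma *P* under 0.05 for 1). *Ubd*, which encodes the interferon-inducible modifier FAT10, had the largest difference but hardly any reads. Normalized counts of *Ubd* were 7.5, 1.7, and 0 in *Irf1-/-* replicates 2, 3, and 4 and 9.1, 40.6, and 17.2 in the corresponding WT libraries. All *Irf1-/-* libraries were lower, but the estimate was wide (log2 fold change −2.79, 95% interval −4.95 to −0.62, adjusted *P* = 0.170, limma). The mean normalized count of *Ubd* was 3.1 in *Irf1-/-* and 22.3 in WT HSCs, so it passed the filter on the mean of all libraries through the WT libraries, and without WT replicate 3 it was not tested.

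A further list held 12 genes of the type I interferon receptor, its signaling to ISGF3, and the interferon regulatory factors. Of these 12 genes, 0 were called by limma, edgeR, or DESeq2 and 4 had an unadjusted limma *P* under 0.05. The targeted gene, *Irf1*, is on this list and is 1 of these 4. The median log2 fold change of the 12 genes was 0.11, with 8 above 0. *Irf8*, a regulatory factor of myeloid development, had the largest difference among them (log2 fold change 0.36 ± 0.17 SE, limma adjusted *P* = 0.326), and its genotypes overlapped. The log2 fold change of *Irf8* was 0.55 without WT replicate 4 (limma adjusted *P* = 0.0551) and 0.25 without WT replicate 2. For *Stat2* the log2 fold change was 0.11 ± 0.096 SE (limma adjusted *P* = 0.658), and for *Irf9* it was 0.30 ± 0.084 SE (limma adjusted *P* = 0.0765) with all 3 *Irf1-/-* libraries above all 3 WT libraries. *Ifnar1*, a chain of the type I interferon receptor, was also higher in all 3 *Irf1-/-* libraries (log2 fold change 0.25 ± 0.082 SE, limma adjusted *P* = 0.126) and was not called.

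Of the 22 other genes induced by type I interferon, 5 were called lower and 0 higher, 15 had a fold change below 0, and the median log2 fold change was −0.22. The genes called were *Ifit2*, *Ifit3*, *Ifit3b*, *Oas3*, and *Mx1*, which encode antiviral effectors. All 5 lost their calls without the trend in the prior variance (limma adjusted *P* between 0.0511 and 0.1995). *Oas3*, a 2'-5' oligoadenylate synthetase, had normalized counts of 951, 1339, and 910 in *Irf1-/-* replicates 2, 3, and 4 and 2801, 2534.5, and 2481 in the corresponding WT libraries. For *Ifit3* the normalized counts were 152, 187, and 91.4 in *Irf1-/-* replicates 2, 3, and 4 and 490.5, 476, and 575.5 in the corresponding WT libraries. Both genes were lower in every *Irf1-/-* library, with log2 fold changes of −1.31 for *Oas3* (SE 0.14, limma adjusted *P* = 0.000124) and −1.89 for *Ifit3* (SE 0.26, limma adjusted *P* = 0.00103). *Ifit3b*, a near-identical copy of *Ifit3* with which it can share reads, had a log2 fold change of −2.23 (SE 0.34, limma adjusted *P* = 0.00255).

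*Ifit2* was lower as well (log2 fold change −0.69 ± 0.094 SE, limma adjusted *P* = 0.00111), and so was *Mx1*, a GTPase against influenza-type viruses (log2 fold change −1.24 ± 0.30 SE, limma adjusted *P* = 0.0368). Of the 6 fits without a library, *Mx1* kept its call only in that without *Irf1-/-* replicate 3, and its adjusted *P* reached 0.130 in the others (limma). Without the filter on low values *Mx1* was not called either (adjusted *P* = 0.0562, limma). *Rsad2* (log2 fold change −0.47, adjusted *P* = 0.0391, limma) and *Oasl2* (log2 fold change −0.43, adjusted *P* = 0.0484, limma) were lower by about as much as *Herc6* and, like it, stayed under the fold change threshold. Without a library, *Rsad2* was above 0.05 in 5 of 6 fits (adjusted *P* up to 0.185) and *Oasl2* in 4 of 6 (adjusted *P* up to 0.258, limma). In size, the differences of the ISG15 conjugation genes lay within the range of this list, which ran from −2.23 to 0.25 on the log2 scale.

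**Figure D1:**
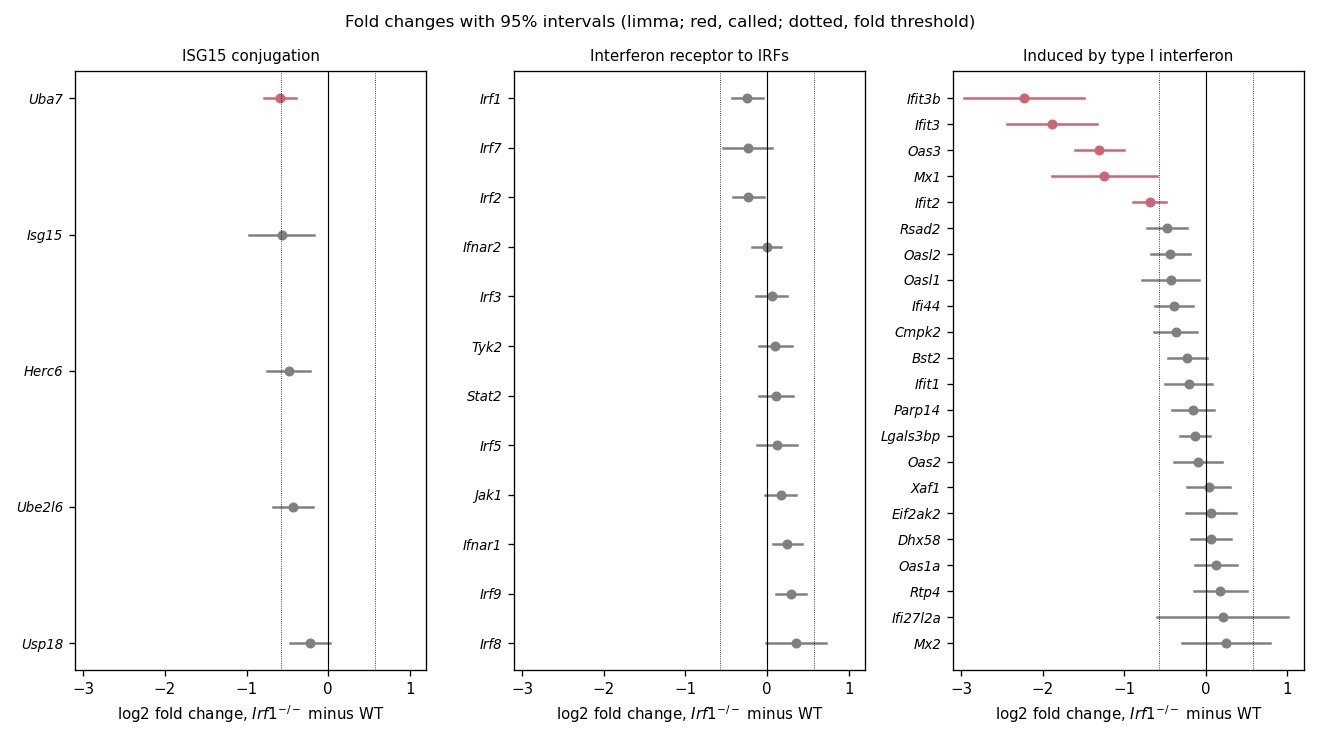
Log2 fold changes (horizontal axes, *Irf1-/-* minus WT) with 95% intervals for the 5 ISG15 conjugation genes, 12 genes from the interferon receptor to the interferon regulatory factors, and 22 other genes induced by type I interferon. Called genes are in red, and dotted lines mark the threshold of 0.58 in either direction. *Uba7* at −0.59 is the called gene of the pathway, next to 5 interferon-induced genes between −2.23 and −0.69.

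Marker genes were used to check the sorted cells. All 8 HSC markers were detected, with summed normalized counts of 188687, 212577, and 192338 in *Irf1-/-* replicates 2, 3, and 4 and of 193132, 198018, and 180752 in WT replicates 2, 3, and 4. Of these markers 0 were called by limma, edgeR, or DESeq2, and 6 had an unadjusted limma *P* under 0.05. Fold changes were above 0 for 6 of the 8, with a median of 0.23 on the log2 scale, and libraries did not overlap for 4 higher and 1 lower, where 10.6% of tested genes were higher and 9.27% lower in this way. At an adjusted *P* under 0.05 alone, *Procr*, which encodes the receptor CD201, was higher in *Irf1-/-* HSCs (log2 fold change 0.52 ± 0.099 SE, limma adjusted *P* = 0.0112) and *Ly6a*, which encodes the sorting marker Sca1, was lower (log2 fold change −0.43 ± 0.094 SE, limma adjusted *P* = 0.0245). *Ly6a* was above 0.05 in 3 of the 6 fits without a library (adjusted *P* up to 0.115, limma). Neutrophil lineage markers (6 of 6 tested, none at 0 in every library, 0 called by limma or edgeR, 0 with an unadjusted limma *P* under 0.05) summed to 7163 normalized counts in WT replicate 4. They summed to between 341 and 835 in the other 5 libraries. By the mean of all libraries their most abundant gene was *Ngp*, with 2535 normalized counts in WT replicate 4 and between 24.8 and 127 elsewhere, where *Mpo* was the most abundant (227 to 355), and *Ltf* had 2032 and between 28.2 and 64.0. Without WT replicate 4, *Ngp* was called higher in *Irf1-/-* HSCs (log2 fold change 1.67, limma adjusted *P* = 0.0449), and the other 5 markers were not. WT replicate 4 was also the lowest WT library for *Uba7*, *Ube2l6*, *Herc6*, and *Usp18*. Without it the log2 fold changes were −0.55 for *Isg15*, −0.65 for *Uba7*, −0.48 for *Ube2l6*, −0.55 for *Herc6*, and −0.24 for *Usp18*, and *Uba7* was the one called.

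Of 4 megakaryocyte markers, all tested and none at 0 in every library, 1 was called lower. Their summed normalized counts were 38989, 23826, and 34587.5 in *Irf1-/-* replicates 2, 3, and 4 and 45307, 57853, and 43180 in WT replicates 2, 3, and 4. The gene called was *Pf4*, a platelet chemokine (log2 fold change −1.11 ± 0.18 SE, limma adjusted *P* = 0.00334; 0.238 without the trend, where it was not called). *Itga2b*, the integrin chain CD41 and the most abundant gene of this list, was not called (log2 fold change −0.56 ± 0.17 SE, limma adjusted *P* = 0.0922), but it was called without WT replicate 4 (log2 fold change −0.67, limma adjusted *P* = 0.0449), and without *Irf1-/-* replicate 3 its log2 fold change was −0.35. Of the erythroid markers, *Klf1* was called lower (log2 fold change −0.72 ± 0.17 SE, limma adjusted *P* = 0.0361), and the 3 globin genes on the list stood at 0 in every library. *Flt3*, a receptor of multipotent progenitors that is on the dendritic cell and progenitor lists, was called higher (log2 fold change 0.67 ± 0.16 SE, limma adjusted *P* = 0.0407). The 6 dendritic cell markers had a median log2 fold change of −0.47, with 4 below 0, and *Flt3* was the only gene called among them. *Klf1* kept its call only without *Irf1-/-* replicate 4 or WT replicate 4 and *Flt3* only without WT replicate 2 or WT replicate 4, and in the other fits without a library the adjusted *P* reached 0.117 for *Klf1* and 0.127 for *Flt3* (limma). The part of these differences between cell types in the levels of the ISG15 conjugation genes was not tested.

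The markers of B cells (3 of 3 tested), T and NK cells (3 of 5 tested), and monocytes and macrophages (6 of 6 tested) held 0 genes called by limma or edgeR and 0 with an unadjusted limma *P* under 0.05. The most abundant gene was *Cd79b* for B cells, with a mean normalized count of 2800, *Klrb1c* for T and NK cells (520), and *Lyz2* for monocytes and macrophages (26988). The largest fold changes in these lists were those of *Ms4a1* (log2 fold change −0.37, adjusted *P* = 0.801, limma), *Cd3d* (log2 fold change −0.36, adjusted *P* = 0.830, limma), and *Ccr2* (log2 fold change 0.81, adjusted *P* = 0.613, limma). These 3 genes had mean normalized counts of 29.4, 22.2, and 55.5 in *Irf1-/-* and 39.0, 31.9, and 42.1 in WT HSCs.

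Genes with the pattern most like that of each pathway gene were sought among tested genes whose mean normalized count reached 100, by Pearson r of log2 values over the 6 libraries. *Isg15* was followed most closely by *Lair1* (r = 0.994) and *Saal1* (r = 0.992), and *Uba7* by *Eif2a* (r = 0.998) and *Adgrd1* (r = 0.996). *Adgrd1*, an adhesion G protein-coupled receptor, had normalized counts of 916, 955, and 1020.5 in *Irf1-/-* replicates 2, 3, and 4 and 1982, 2056, and 1724.5 in WT replicates 2, 3, and 4. It was called lower, by more than *Uba7* (log2 fold change −0.99 ± 0.12 SE, limma adjusted *P* = 0.000264). *Ube2l6* was followed by *Etfa* (r = 0.999) and *Cops5* (r = 0.998), *Herc6* by *Tpst1* (r = 0.998) and *Gpcpd1* (r = 0.998), and *Usp18* by *Socs1* (r = 0.988) and *Apool* (r = 0.983). *Tpst1* had an adjusted *P* of 0.0306 (log2 fold change −0.56, limma). Without the trend in the prior variance its adjusted *P* was 0.262, and in the fits without a library it reached 0.139 (limma). Among those fits *Tpst1* was called without *Irf1-/-* replicate 3 or WT replicate 4. *Socs1* encodes, like *Usp18*, a feedback inhibitor of interferon signaling (log2 fold change −0.17, adjusted *P* = 0.625, limma). Without *Irf1-/-* replicate 4 the log2 fold change of *Socs1* was −0.094.

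By the deviations from the genotype means, which leave the difference between genotypes out, the closest genes were *Hsh2d* (r = 0.999) and *Nol12* (r = 0.997) for *Isg15* and *Afg1l* (r = 0.996) and *Gm19605* (r = 0.996) for *Uba7*. They were *Atp5a1* (r = 0.999) and *Fahd1* (r = 0.999) for *Ube2l6*, *Capn2* (r = 1.000) and *Cep57l1* (r = 0.998) for *Herc6*, and *Pym1* (r = 0.999) and *Pigg* (r = 0.997) for *Usp18*. These are the highest values among 12068 genes compared over 6 libraries. The median r of the 22 interferon-induced genes was 0.739 with *Isg15*, 0.740 with *Herc6*, 0.646 with *Usp18*, and 0.494 with *Ube2l6*, but −0.221 with *Uba7*. Over all genes compared, the median r was 0.187 with *Isg15*, 0.377 with *Herc6*, 0.150 with *Usp18*, 0.358 with *Ube2l6*, and 0.173 with *Uba7*. Whether these medians differ between the pathway genes was not tested, and 18 of the 22 genes shared their highest *Irf1-/-* library, replicate 3.

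Promoters were read from a table of RefSeq (GRCm38.p6) promoters, which held those of 4 of the 5 genes, *Isg15*, *Uba7*, *Ube2l6*, and *Herc6*. The 250 bases before the start of the gene were searched on both strands for AANNGAAA, the core contacted by an interferon regulatory factor, for the core of the interferon-stimulated response element (GAAA, any 2 bases, GAAA), which contains the former, and for TTCNNNGAA, the gamma-activated site. The core of the response element was present in 1 of the 4 promoters, that of *Isg15*, and in 2.98% of all 32851 promoters of this length. AANNGAAA was present in those of *Isg15* and *Uba7* and in 21.3% of all promoters. TTCNNNGAA was in 0 of the 4 and in 7.02% of all promoters. Of the 15 genes of the interferon-induced list with a promoter in the table, 7 held the core of the response element and 11 held AANNGAAA. The promoters of *Isg15* (chr4:156200819-156201068, minus strand) and *Uba7* (chr9:107975317-107975566, plus strand) are shown because the modifier and its E1 enzyme had the largest fold changes of the pathway, and capitals mark every match to AANNGAAA or to the core of the response element.
*Isg15*: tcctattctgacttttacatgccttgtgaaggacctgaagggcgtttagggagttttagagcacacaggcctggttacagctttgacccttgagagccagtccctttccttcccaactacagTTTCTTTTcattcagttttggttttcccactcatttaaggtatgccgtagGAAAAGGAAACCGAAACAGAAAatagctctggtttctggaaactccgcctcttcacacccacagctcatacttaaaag
*Uba7*: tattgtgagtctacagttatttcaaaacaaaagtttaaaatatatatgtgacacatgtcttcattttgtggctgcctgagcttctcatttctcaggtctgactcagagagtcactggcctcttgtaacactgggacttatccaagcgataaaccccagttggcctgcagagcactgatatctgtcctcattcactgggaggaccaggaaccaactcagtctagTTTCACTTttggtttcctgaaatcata
In *Isg15*, 3 overlapping matches to the core of the response element lay between 78 and 57 bases before the start, and a further match to AANNGAAA on the opposite strand lay 128 to 121 bases before it. In *Uba7* the match was on the opposite strand, 27 to 20 bases before the start. A match describes the letters and does not show binding, and these coordinates are those of GRCm38.p6, whereas the authors' processing notes name mm39.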

How the data were processed

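Full-length cDNA (SMART-Seq v4) was turned into Nextera XT libraries. The authors used Trim Galore for trimming, HISAT2 for alignment (genome build mm39 in the submitters' processing notes), and htseq-count for reads per gene, in versions not given in the sources used here. The deposited signal is these counts, each divided by 1 DESeq2 size factor per library. All deposited values (100%) were whole multiples, within 0.01 of a read, of the worth of a single read, which gave back the reads of each gene. *Isg15* rested on the fewest reads of the pathway, 426 in the lowest library, and reads without molecular identifiers are not independent molecules. Libraries of a genotype differed by more than sampling noise, with 16.2 to 29.8 for chi-square per gene. No source used here says that strand entered the counting, and *Isg15*, *Herc6*, and *Usp18* each overlap a predicted gene without a row in the table (RefSeq, GRCm38.p6), whose reads cannot be told apart from theirs.

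Genotypes, taken from the labels, were compared in R 4.3.3 by limma 3.58.1 (functions lmFit and eBayes, trend in the prior variance) as described with the results, and the script was tested on simulated data. The pseudocount of 1 understates changes of genes with low counts. Lists were described by counts and medians beside those of all tested genes. DESeq2 1.42.0 and the quasi-likelihood test of edgeR 4.0.16 were run on the recovered reads as alternatives, beside other pseudocounts, filters, and scalings, no trend, a replicate block, an adjusted *P* alone, and the omission of each library. DESeq2 gave no adjusted *P* for 4058 of the tested genes, and it is not cited for lists with such genes. Figures were drawn with matplotlib 3.10.9.

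The members and lists were chosen with earlier results of these data known. The genes named are *Irf1*, the 5 members, *Ube2l3*, every called gene of a list or otherwise the one with the largest fold change, and the 2 genes with the highest r by each measure of likeness. *Stat2*, *Irf9*, *Ifnar1*, *Rsad2*, *Oasl2*, *Itga2b*, *Ngp*, *Cd79b*, *Klrb1c*, *Lyz2*, *Mpo*, and *Ly6a* were named after their values were seen. Some genes are not reported here and were left out of the lists, but not of the fit. RIG-I was listed under 2 symbols and is counted once.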

Additional observations from a re-analysis of the deposited data

How the results depend on the processing

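All 5 pathway genes kept a log2 fold change below 0 in each of the 17 alternatives run, and *Ube2l6* (between −0.56 and −0.35) and *Usp18* (between −0.30 and −0.11) were called in none of them. *Uba7* was called in 11, and over all 17 its adjusted *P* was between 1.67e-09 and 0.138 (limma, edgeR, or DESeq2). It was not called without a trend in the prior variance (log2 fold change −0.59, 0 members called) or after quantile normalization (−0.48, 0 members called), and without a library its log2 fold change was between −0.65 and −0.56. For *Isg15* the log2 fold change without a library was between −0.79 and −0.41 and for *Herc6* between −0.60 and −0.42, and both were called only without *Irf1-/-* replicate 3, apart from *Herc6* (−0.48) at an adjusted *P* under 0.05 alone, where 2 members were called. Between 0 and 2 members were called without a library. Members whose libraries did not overlap numbered 4 as reported and 5 after median centring and without *Irf1-/-* replicate 3 or WT replicate 3. Allowing 1 mismatch in the core of the response element gave 3 member promoters with a match and 31.4% of all promoters. The cause of these shifts was not tested.

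Over all genes, 166 were called lower and 167 higher. The counts were 33 lower and 7 higher without the trend, 260 and 301 at an adjusted *P* under 0.05 alone, 162 and 165 with edgeR, and 208 and 289 with DESeq2. Without a library they were between 105 (WT replicate 3) and 265 (WT replicate 4) lower and between 83 (*Irf1-/-* replicate 4) and 304 (WT replicate 4) higher. Without the trend, 0 of the 22 interferon-induced genes were called, and *Pf4* (adjusted *P* = 0.238), *Klf1* (0.316), *Flt3* (0.358), and *Adgrd1* (0.0511) lost their calls too (limma). *Procr* (0.227), *Ly6a* (0.262), *Rsad2* (0.274), *Trim25* (0.289), and *Oasl2* (0.344) were then above 0.05. *Herc6* then had an adjusted *P* of 0.294 and *Ube2l6* of 0.357, and *Herc6* without the filter on low values one of 0.05003. *Ube2l6* was under 0.05, among others, after quantile normalization (0.0236) and median centring (0.0326), with the block (0.00514, limma), and in DESeq2 (0.00509). Omitting a library often took *Ube2l6* above 0.05. Its adjusted *P* became 0.216 or 0.255 when *Irf1-/-* replicate 2 or 4 was dropped, respectively (limma). Dropping WT replicate 2 or 3 gave 0.108 or 0.206, whereas dropping *Irf1-/-* replicate 3 or WT replicate 4 gave 0.0146 or 0.0345 (limma). *Isg15* was also under 0.05 in DESeq2 (adjusted *P* = 0.0492, log2 fold change −0.54) and stayed short of the fold change threshold. With the replicate number as a block, 196 genes were called lower and 219 higher, and *Uba7* was the member called (log2 fold change −0.59, adjusted *P* = 0.00161, limma). The deviations of same-numbered libraries had correlations of −0.094, 0.246, and 0.147, so the numbers were not taken as pairs.

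Among other named genes, the sign turned for *Itgal* without *Irf1-/-* replicate 3 (0.086, lowest −0.67 without replicate 2), *Nol12* without *Irf1-/-* replicate 2 (0.018, lowest −0.12), *Klrb1c* without *Irf1-/-* replicate 4 (−0.014, highest 0.50 without replicate 2), and *Ccr2* without WT replicate 2 (−0.083, highest 1.36). Without WT replicate 4 it turned for *Cd3d* (0.065, lowest −0.68 over the fits without a library), *Ltf* (0.61, lowest −2.46), and *Ngp* (1.67, adjusted *P* = 0.0449, limma, called higher; lowest −1.64). In edgeR the log2 fold changes were −3.65 for *Ltf* and −3.20 for *Ngp*. Without a library, *Stat2* was between 0.023 (WT replicate 4) and 0.18 (WT replicate 2) and *Ms4a1* between −0.66 (WT replicate 2) and −0.14 (WT replicate 4). *Oasl2* had an adjusted *P* of 0.0510 with a pseudocount of 0.5 and of 0.0602 without the filter on low values (limma). *Rsad2* had one of 0.0506 after quantile normalization (limma).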
